A study of Homo sapiens with 12 samples.

Results

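H3K27 acetylation (H3K27ac) was compared between MiaPaCa2 and CFPAC1 after both lines had been exposed to interferon beta (IFN-β). The 4 libraries compared, of 12 in the series, were chosen by their labels: 2 of CFPAC1 and 2 of MiaPaCa2, each treated with 1000 U/ml of IFN-β for 2 h. Both are established lines of human pancreatic ductal adenocarcinoma, used as bulk cultures and immunoprecipitated with the same H3K27ac antibody. The untreated bulk cultures of the same lines (2 libraries each) served to show which line differences were there without IFN-β. The remaining 4 libraries, CFPAC1 clones with or without IRF1, were used with the others to place each gene's window, to choose the genes tested and to estimate the shared spread, and stand in no comparison here. CFPAC1 was grown in IMDM and MiaPaCa2 in DMEM with the same serum, glutamine and antibiotics, so line and medium cannot be told apart, and each group is 1 line. The labels do not say whether the 2 libraries of a group came from separate cultures, so the p-values measure only the spread between these libraries, which may be technical. They name 2 sequencing instruments without assigning libraries to either, so a sequencing batch could not be tested. Read depth is unknown.

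H3K27ac marks active promoters and enhancers, and broad stretches of it lie at strongly transcribed genes. IFN-β binds the receptor IFNAR1/IFNAR2, whose kinases JAK1 and TYK2 act through the transcription factor complex ISGF3, of which STAT2 and IRF9 are parts; it binds interferon-stimulated response elements and switches on antiviral genes, sensors of foreign nucleic acid and the machinery of antigen presentation. A later layer, driven in part by IRF1, includes the chemokines CXCL9, CXCL10 and CXCL11 and the tryptophan-degrading enzyme IDO1. CFPAC1 is usually described as an epithelial, low-grade line and MiaPaCa2 as a poorly differentiated, high-grade one. The enhancers that keep pancreatic epithelial identity are typically set by endodermal factors such as GATA6, together with KLF5.

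The promoters of 8 interferon genes are shown because the comparison turns on them. Like H3K27ac coverage in both treated lines was found at 3 of them (ISG15, MX1, IFIT1). Another 3 were marked in treated CFPAC1 and at or near 0 bp in treated MiaPaCa2 (CXCL10, CXCL11, IFI44L). The last 2 (OAS1, XAF1) were marked in CFPAC1 with or without IFN-β, and in MiaPaCa2 only once it was treated. Each sequence is RefSeq's (GRCh38.p14), read 5′ to 3′ on the gene's strand, and has 280 bases, 250 before the listed start and 30 from it. Capitals mark matches to the core of the response element, searched as 2 copies of GAAA with any 2 bases between them, on either strand (a pair of TTTC where the match is on the reverse strand); overlapping matches run together. ISG15 lies at chr1:1013247-1013526 (+), MX1 at chr21:41420308-41420587 (+), IFIT1 at chr10:89392373-89392652 (+), CXCL10 at chr4:76023468-76023747 (-), CXCL11 at chr4:76036041-76036320 (-), IFI44L at chr1:78620198-78620477 (+), OAS1 at chr12:112906712-112906991 (+) and XAF1 at chr17:6755197-6755476 (+).
ISG15: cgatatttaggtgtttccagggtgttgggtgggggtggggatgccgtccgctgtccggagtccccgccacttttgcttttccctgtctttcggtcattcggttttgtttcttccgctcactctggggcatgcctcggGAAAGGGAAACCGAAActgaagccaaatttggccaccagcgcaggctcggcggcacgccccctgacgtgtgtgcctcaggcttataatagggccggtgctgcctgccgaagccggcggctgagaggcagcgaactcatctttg
MX1: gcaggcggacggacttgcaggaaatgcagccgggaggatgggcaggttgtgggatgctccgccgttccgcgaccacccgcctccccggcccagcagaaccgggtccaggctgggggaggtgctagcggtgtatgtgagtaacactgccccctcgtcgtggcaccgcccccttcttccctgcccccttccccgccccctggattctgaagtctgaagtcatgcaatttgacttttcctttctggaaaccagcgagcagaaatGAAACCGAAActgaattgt
IFIT1: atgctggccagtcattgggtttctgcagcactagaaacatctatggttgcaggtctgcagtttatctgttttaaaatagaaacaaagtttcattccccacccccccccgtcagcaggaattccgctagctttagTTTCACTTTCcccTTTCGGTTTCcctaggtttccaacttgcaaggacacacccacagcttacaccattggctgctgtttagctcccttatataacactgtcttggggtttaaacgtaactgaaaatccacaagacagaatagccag
CXCL10: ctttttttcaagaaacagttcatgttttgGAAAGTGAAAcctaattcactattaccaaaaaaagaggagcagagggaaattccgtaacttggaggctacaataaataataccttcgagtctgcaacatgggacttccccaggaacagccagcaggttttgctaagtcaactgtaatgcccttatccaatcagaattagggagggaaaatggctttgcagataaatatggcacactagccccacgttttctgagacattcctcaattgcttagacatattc
CXCL11: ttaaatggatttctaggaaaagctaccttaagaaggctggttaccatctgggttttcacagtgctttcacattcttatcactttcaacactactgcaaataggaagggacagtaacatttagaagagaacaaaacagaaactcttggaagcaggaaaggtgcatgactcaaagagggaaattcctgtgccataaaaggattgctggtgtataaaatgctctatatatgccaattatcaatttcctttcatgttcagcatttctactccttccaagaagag
IFI44L: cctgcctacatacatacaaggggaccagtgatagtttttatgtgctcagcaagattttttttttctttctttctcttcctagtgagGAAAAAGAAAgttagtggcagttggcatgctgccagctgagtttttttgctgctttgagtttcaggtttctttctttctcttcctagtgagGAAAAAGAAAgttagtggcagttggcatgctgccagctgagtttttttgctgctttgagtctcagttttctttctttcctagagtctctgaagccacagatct
OAS1: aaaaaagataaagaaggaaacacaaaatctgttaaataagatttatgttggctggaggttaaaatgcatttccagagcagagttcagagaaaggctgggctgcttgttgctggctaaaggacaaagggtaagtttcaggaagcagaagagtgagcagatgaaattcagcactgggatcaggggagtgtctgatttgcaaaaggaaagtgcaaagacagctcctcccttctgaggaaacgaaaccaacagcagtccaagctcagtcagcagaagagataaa
XAF1: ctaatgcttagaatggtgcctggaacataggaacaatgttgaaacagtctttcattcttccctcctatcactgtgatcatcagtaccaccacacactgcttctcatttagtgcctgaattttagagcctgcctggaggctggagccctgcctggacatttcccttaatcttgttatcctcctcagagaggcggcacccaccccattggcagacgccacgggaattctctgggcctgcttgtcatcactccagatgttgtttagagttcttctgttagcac

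The ISG15, MX1, IFIT1, CXCL10 and IFI44L windows hold a match, and those of CXCL11, OAS1 and XAF1 hold none. Among genes with a listed promoter, 58 of 116 interferon genes (50.0%) had a match within 300 bases around the start, against 344 of 12495 tested genes (2.75%). The share was 35 of 71 (49.3%) for interferon genes of like coverage in both treated lines, 22 of 39 (56.4%) for those higher in CFPAC1 and 3 of 11 (27.3%) for those higher in MiaPaCa2. A match is only a run of letters, and these shares were not tested against each other.

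In treated CFPAC1, peaks covered all 280 bases shown for CXCL10 in both libraries, and in treated MiaPaCa2 none of them. The CXCL11 stretch had 280 and 276 bases under peaks in treated CFPAC1 and 0 in the other bulk libraries. The IFI44L stretch was covered by 150 bases in each untreated and 280 in each treated CFPAC1 library, and by 0 in MiaPaCa2 with or without IFN-β. In MiaPaCa2 the OAS1 and XAF1 stretches went from 0 bases in both untreated libraries to 280 in both treated ones. In CFPAC1 the OAS1 stretch had 280 bases in every bulk library. The XAF1 stretch had 76 and 187 bases in untreated CFPAC1 and 280 in both treated libraries. MX1 and IFIT1 were fully covered in all 8 bulk libraries, and ISG15 in all but 1 treated CFPAC1 library, where 162 bases lay under a peak.

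The treated CFPAC1 lists held 85948 and 85658 peaks covering 76.88 and 76.62 Mb, and the treated MiaPaCa2 lists 59896 and 69218 peaks covering 63.61 and 77.12 Mb. The Jaccard index, the shared part of the covered bases of 2 libraries, was 0.678 within treated CFPAC1, 0.691 within treated MiaPaCa2 and 0.271 to 0.288 between the treated lines (0.253 to 0.278 between the untreated lines). Ductal markers were checked first. KRT8, KRT18, KRT19, SOX9 and MUC1 were covered in all 4 treated libraries, whereas CDH1, EPCAM and CFTR were at 0 bp in treated MiaPaCa2. CFTR did not differ at its listed start (-0.02 on the log2 scale, limma adjusted p = 0.969). Its call was also lost with -log10 q of at least 5 (0.128) and with equal peak numbers (0.0988). The same held without CFPAC1 replicate 1 (-1.1) or MiaPaCa2 replicate 2 (-1.2). Summed over 10 ductal markers, coverage was 59.0 and 58.2 kb in treated CFPAC1 and 39.9 and 40.6 kb in treated MiaPaCa2. Summed fibroblast markers reached 5.0 and 5.4 kb in treated CFPAC1 and 11.7 and 14.6 kb in treated MiaPaCa2, with ACTA2 covered in all 4 and DCN at 0 bp. Endothelial markers reached 3.6 and 3.7 kb against 11.2 and 10.6 kb (VWF and TEK at 0 bp), leukocyte markers 7.1 and 6.2 kb against 6.7 and 9.2 kb (PTPRC and MS4A1 at 0 bp), and acinar or islet markers 1.6 and 1.7 kb against 0.0 and 0.9 kb, with 6 of 8 at 0 bp. The part of these markers in the results was not tested.

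Coverage here counts the base pairs that peaks span in a window of 5 kb on each side of a gene's end, at most 10001 bp. It measures how far peaks extend, not how high the signal is. A log2 difference is MiaPaCa2 minus CFPAC1 on the scale log2(bp + 500), so it is positive where MiaPaCa2 was higher. It is given ± SE (n = 2 libraries per line). The SE and the 95% interval are limma's, with the spread estimated over all 12 libraries and not from these 4 alone. At a gene with 0 bp in a line the size of the difference is set by the added 500 bp. A gene was called at a limma adjusted p under 0.05, and coverage was termed like where peaks lay in all 4 treated libraries and the 95% interval of the difference stayed within 1 on either side of 0. Both can hold for 1 gene.

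After IFN-β the lines differed at a large share of genes: of 15509 protein-coding genes tested, 24.6% (3814) were higher in MiaPaCa2 and 17.9% (2782) in CFPAC1, and 53.0% met the bound for like coverage. Against this background, 156 of 158 interferon genes could be tested, and the calls leaned the other way: 50 (32.1%) were higher in CFPAC1 and 15 (9.62%) in MiaPaCa2. Peaks lay in all 4 treated libraries at 130 (83.3%), against 74.0% of all genes. Like coverage was met by 89 (57.1%), 16 of them called as well, and 17 were neither called nor shown to be alike. IRF4 had no coverage in any treated library. The median difference was -0.19 over the interferon genes and 0.10 over all genes. The treated groups did not overlap at 117 of the 156 interferon genes, a share to be read against 70.7% of all genes.

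**Figure D1:**
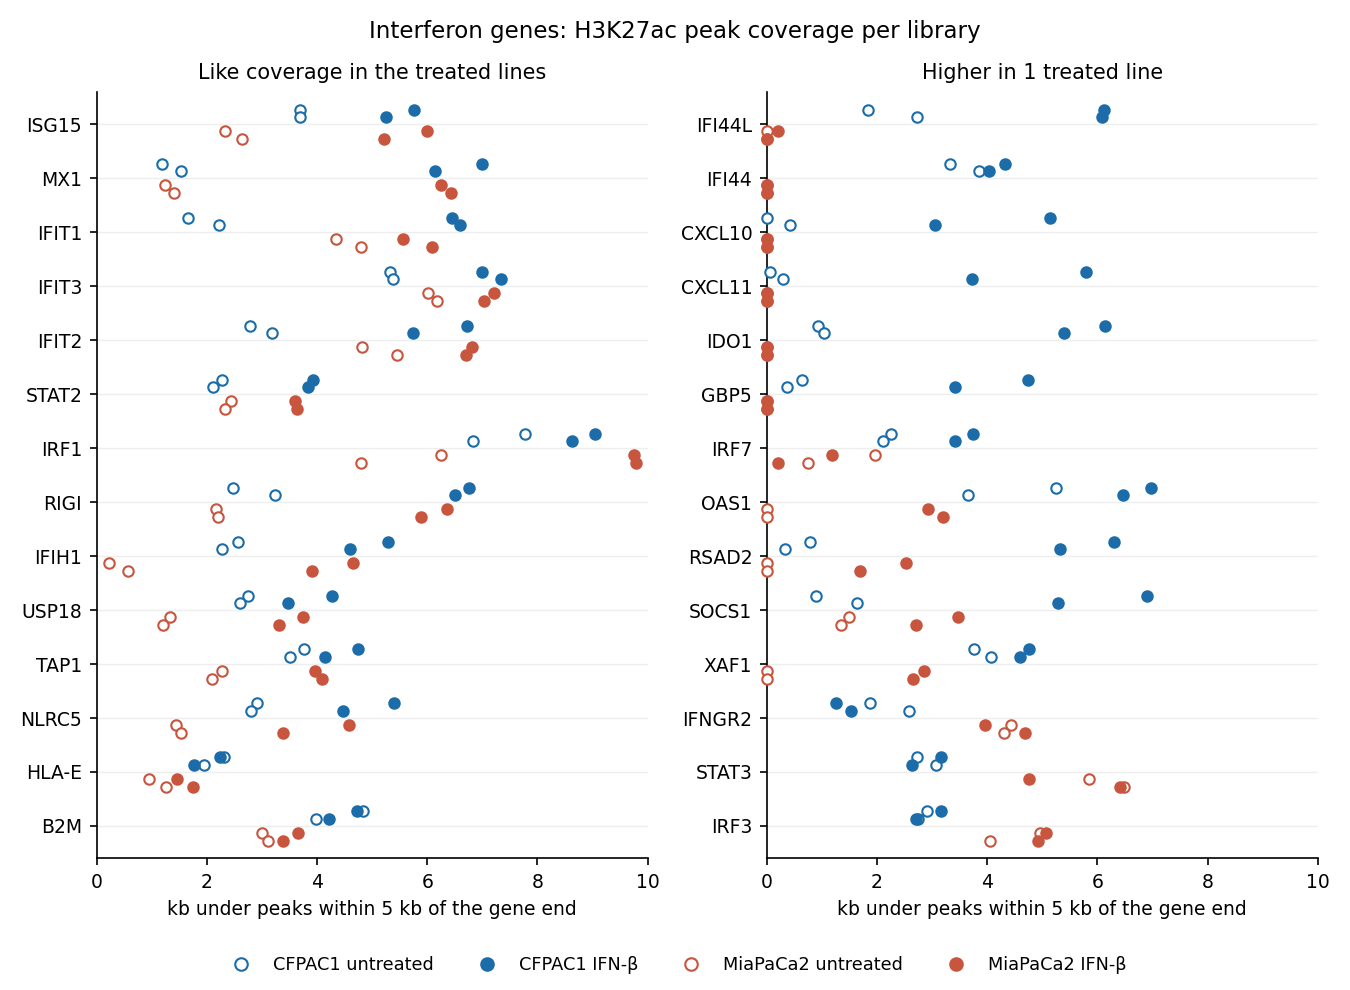
Coverage in kb under peaks (x axis) of 14 interferon genes of like coverage (left) and 14 others (right) in each bulk library; blue points are CFPAC1, red points MiaPaCa2, open untreated and filled treated, and points at the same value cover each other. On the left the filled points of both lines lie together, and on the right CXCL10, CXCL11, IDO1 and GBP5 have filled MiaPaCa2 points at 0.

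The receptor chains, STAT2 and IRF1 met the bound for like coverage in both treated lines, with IRF9 undecided. Of 30 tested signalling genes, 17 met the bound, 6 were higher in MiaPaCa2 and 5 in CFPAC1, with a median difference of 0.08; these shares are near those of all genes (53.0%, 24.6% and 17.9%). IFNAR1, a chain of the IFN-β receptor, had 1999 and 2015 bp in treated CFPAC1 and 2071 and 2087 bp in treated MiaPaCa2, a difference of 0.04 ± 0.12. The values of IFNAR2, the other chain, were 1403 and 1263 bp against 1536 and 1547 bp (0.15 ± 0.20). For STAT2, a transcription factor of ISGF3, the values were 3932 and 3841 bp against 3591 and 3633 bp (-0.10 ± 0.17). IRF1, a transcription factor induced early by interferon, reached 9044 and 8628 bp in CFPAC1 and 9746 and 9781 bp in MiaPaCa2 (0.13 ± 0.14, 95% interval -0.17 to 0.44). JAK1, a receptor kinase, lay within the bound but was called lower in MiaPaCa2, with 2901 and 2679 bp against 2081 and 1926 bp (-0.40 ± 0.13, limma adjusted p = 0.0292), a call lost without either CFPAC1 library or without MiaPaCa2 replicate 2 (adjusted p 0.0608 to 0.198), with 100 bp added (0.0604) and within 20 kb (0.12).

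Other parts of the pathway set the lines apart. IFNGR2, a chain of the interferon gamma receptor, had 1264 and 1532 bp in treated CFPAC1 and 3960 and 4694 bp in treated MiaPaCa2, a difference of 1.34 ± 0.13 (adjusted p = 3.2e-05). It was the only interferon gene higher in MiaPaCa2 whose whole interval lay above 1. STAT3, which mediates signals of interleukin 6 and other cytokines, had 3167 and 2642 bp in CFPAC1 and 4756 and 6419 bp in MiaPaCa2 (0.82 ± 0.12, adjusted p = 0.000392), and PIAS1, a SUMO ligase that restrains cytokine signalling, 1417 and 1668 bp against 2937 and 2883 bp (0.74 ± 0.16). IRF5 had no coverage in treated CFPAC1 and 574 and 758 bp in treated MiaPaCa2. The reverse held for IRF7, which amplifies the type I response, with 3750 and 3417 bp in CFPAC1 and 1176 and 200 bp in MiaPaCa2 (-1.92 ± 0.41, adjusted p = 0.00408); its window is shared with CDHR5. SOCS1, a feedback inhibitor of JAK kinases, had 6893 and 5292 bp in CFPAC1 and 3465 and 2704 bp in MiaPaCa2 (-0.88 ± 0.30, adjusted p = 0.0399); this call was lost without either CFPAC1 library or without MiaPaCa2 replicate 2 (adjusted p 0.0618 to 0.232), and also with no centring (0.0593), no filter (0.0603), 100 bp added (0.079) or windows of 20 kb (0.0752). IRF9, the DNA-binding part of ISGF3, was undecided, with 4099 and 3919 bp against 5900 and 5640 bp (0.47 ± 0.32, interval -0.26 to 1.20).

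Among 11 tested sensors of nucleic acid, 7 were alike, 3 higher in CFPAC1 and 2 in MiaPaCa2. Over all genes these shares were 53.0%, 17.9% and 24.6%. RIGI, a cytoplasmic RNA sensor, had 6757 and 6506 bp in treated CFPAC1 and 6351 and 5893 bp in treated MiaPaCa2 (-0.11 ± 0.16). For IFIH1, the sensor of long double-stranded RNA, the values were 5280 and 4593 bp against 4660 and 3903 bp (-0.19 ± 0.22), and the groups overlapped. STING1 and DHX58 did differ. STING1, the adaptor of DNA sensing, had 2773 and 2959 bp in CFPAC1 against 644 and 771 bp in MiaPaCa2 (-1.49 ± 0.23, adjusted p = 0.000566), and DHX58, a regulator of RIG-I-like receptors, had 7508 and 6510 bp in MiaPaCa2 and 5032 and 3633 bp in CFPAC1 (0.64 ± 0.21, adjusted p = 0.0301). The DHX58 call was lost without CFPAC1 replicate 2 (adjusted p = 0.217), without MiaPaCa2 replicate 1 (0.197), within 2 kb (0.02 on the log2 scale, 0.951), with -log10 q of at least 5 (0.112), after quantile normalization (0.085) and with equal peak numbers (0.0535).

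Of 81 antiviral effectors tested, 45 were alike, a share near the 53.0% of all genes. Higher coverage in CFPAC1 was called at 29 (17.9% over all genes) and in MiaPaCa2 at 4 (24.6%), and 9 were undecided. ISG15, a ubiquitin-like modifier, had 5752 and 5245 bp in treated CFPAC1 and 6003 and 5216 bp in treated MiaPaCa2 (0.02 ± 0.12). MX1, a GTPase that traps viral nucleocapsids, had 6997 and 6134 bp against 6246 and 6425 bp (-0.05 ± 0.27), and IFIT3, which binds IFIT1 on viral RNA, 6987 and 7334 bp against 7210 and 7038 bp (-0.01 on the log2 scale). The groups overlapped at ISG15, MX1 and IFIT3. IFIT1 itself had 6447 and 6588 bp against 5564 and 6084 bp (-0.16 ± 0.21; called within 20 kb at -0.61, adjusted p = 0.0339), and USP18, which removes ISG15 and restrains the receptor, 4266 and 3480 bp against 3752 and 3305 bp (-0.12 ± 0.18).

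Of the interferon genes higher in CFPAC1, 14 had no coverage in any of the 4 bulk MiaPaCa2 libraries: IFI44, GBP5, STAT4, CXCL9, CXCL10, CXCL11, HLA-F, HLA-G, IDO1, IL7, EPSTI1, LGALS9, SLFN11 and APOBEC3A. Coverage in both treated CFPAC1 libraries and in neither treated MiaPaCa2 library was found at 14 of 156 interferon genes, near the 9.09% of all tested genes. The reverse was found at 3 of the 156 and at 4.78% of all tested genes. IFI44L, a negative regulator of innate signalling, had 6129 and 6075 bp in treated CFPAC1 and 200 and 0 bp in treated MiaPaCa2 (-3.49 ± 0.46, adjusted p = 0.000209). Its neighbour IFI44 had 4323 and 4032 bp against 0 in both (adjusted p = 4.64e-07). Both genes were marked in untreated CFPAC1 too, IFI44L with 1845 and 2729 bp and IFI44 with 3318 and 3860 bp. GBP5, a guanylate-binding protein that promotes inflammasome assembly, had 646 and 371 bp in untreated and 4744 and 3408 bp in treated CFPAC1, and was at 0 bp in MiaPaCa2 throughout. GBP1, GBP4 and IFI16, a DNA sensor of the nucleus, followed the same order with traces in MiaPaCa2: GBP1 had 5329 and 3965 bp against 1583 and 290 bp, GBP4 3999 and 2924 bp against 323 and 0 bp, and IFI16 6151 and 4471 bp against 409 and 0 bp. SLFN11, which restricts viral translation and sensitizes cells to DNA damage, had 2482 and 2544 bp in untreated and 2414 and 2460 bp in treated CFPAC1.

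Partial coverage in treated MiaPaCa2 was seen at 3 well-known antiviral genes. OAS1, which makes the activator of RNase L, had 6965 and 6465 bp in treated CFPAC1 and 2931 and 3206 bp in treated MiaPaCa2 (-1.02 ± 0.32, adjusted p = 0.028). RSAD2, which encodes viperin, had 6301 and 5322 bp in CFPAC1 and 2522 and 1699 bp in MiaPaCa2 (-1.29 ± 0.33, adjusted p = 0.0105); it shares its window with CMPK2. XAF1, a promoter of apoptosis, had 4755 and 4588 bp in CFPAC1 and 2845 and 2648 bp in MiaPaCa2 (-0.68 ± 0.13, adjusted p = 0.00244), a difference within the bound. All 3 had 0 bp in both untreated MiaPaCa2 libraries. The treated groups did not overlap at them, as was so at 70.7% of all genes. Within 2 kb of the gene end none of the 3 was called (OAS1 -0.38, adjusted p = 0.183; RSAD2 -0.68, 0.126; XAF1 -0.24, 0.215). The OAS1 call was also lost without any 1 of the treated libraries (adjusted p 0.081 to 0.118), and that of RSAD2 without CFPAC1 replicate 1 (0.0684) or MiaPaCa2 replicate 2 (0.0923), with 100 bp added (0.056) and with equal peak numbers (0.065).

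Antigen presentation divided by class. Of 22 tested class I genes, 20 met the bound (90.9%, against 53.0% of all genes), and the median difference was -0.13. Higher coverage was called at 4 in CFPAC1, a share near the 17.9% of all genes, and at 3 in MiaPaCa2 (24.6% over all genes). The window shared by the peptide transporter TAP1 and the immunoproteasome subunit PSMB9 had 4738 and 4147 bp in treated CFPAC1 and 3965 and 4085 bp in treated MiaPaCa2 (-0.13 ± 0.12). NLRC5, the class I transactivator, had 5405 and 4474 bp against 4581 and 3376 bp (-0.29 ± 0.18), B2M, the light chain, 4724 and 4216 bp against 3648 and 3390 bp (-0.31 ± 0.17), and HLA-E, a ligand of natural killer cells, 2240 and 1758 bp against 1455 and 1740 bp (-0.25 ± 0.19). Within 20 kb HLA-E was called lower in MiaPaCa2 (-0.87, limma adjusted p = 0.00225). Within 2 kb HLA-E (-0.08), PSMB8 (0.3), PSME1 (0.31) and PSME2 (0.54) missed the bound, and TAP1, PSMB9, NLRC5 and B2M kept it. TAP1 and PSMB9 were counted as separate genes although they share a window. TAPBP, which loads peptides, was called higher in MiaPaCa2, whose values were 6882 and 6896 bp beside 4107 and 4366 bp in CFPAC1 (0.64 ± 0.11, adjusted p = 0.00104). HLA-F was the gene of the class with the widest gap, at 1758 and 1604 bp in CFPAC1 and 0 bp in MiaPaCa2 (adjusted p = 5.68e-06). Of 11 class II genes, 5 were higher in CFPAC1 (17.9% over all genes) and 0 in MiaPaCa2 (24.6% over all genes). At an unadjusted limma p under 0.05 the count in MiaPaCa2 was also 0. CD74, the invariant chain, had 4503 and 3857 bp in CFPAC1 and 0 bp in MiaPaCa2. CIITA, the class II transactivator, was alike at 2374 and 2120 bp against 2412 and 3357 bp (0.28 on the log2 scale). Within 20 kb CIITA was called higher in MiaPaCa2 (0.65, limma adjusted p = 0.015).

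The chemokine and checkpoint list was the interferon list with no gene of like coverage (53.0% over all genes). Of 12 tested, 9 were higher in CFPAC1 (17.9% over all genes), 0 in MiaPaCa2 (24.6%) and 3 undecided, with a median difference of -2.29. At an unadjusted limma p under 0.05 the count in MiaPaCa2 was also 0. CXCL10, which draws T cells through CXCR3, had 4 and 414 bp in untreated CFPAC1, 5143 and 3058 bp in treated CFPAC1 and 0 bp in all bulk MiaPaCa2 libraries (-3.17 ± 0.32, adjusted p = 3.78e-05). CXCL11, another CXCR3 ligand, went from 56 and 296 bp to 5785 and 3729 bp in CFPAC1 and was at 0 bp in MiaPaCa2 (-3.37 ± 0.25, adjusted p = 3.78e-06). CXCL9, the third of these ligands, had 1705 and 453 bp in treated CFPAC1 and 0 bp in MiaPaCa2. The gap was as complete at IDO1, with 6130 and 5399 bp in treated CFPAC1 against 0 bp (-3.65 ± 0.36, adjusted p = 3.03e-05). CX3CL1, a membrane-bound chemokine, had 5796 and 4162 bp against 218 and 0 bp. CD274, which encodes PD-L1, was undecided: 9517 and 9278 bp in treated CFPAC1 and 7504 and 6534 bp in treated MiaPaCa2 (-0.40 ± 0.32, interval -1.13 to 0.32).

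Most of the gaps were there without IFN-β. Over all genes, 83.7% of the genes called between the treated lines were called in the same direction between the untreated lines, and 48.9% were called between the untreated lines in all. Of the 50 interferon genes higher in treated CFPAC1, 39 were called in the untreated comparison, and of the 15 higher in treated MiaPaCa2, 12. The untreated comparison called 68 interferon genes higher in CFPAC1 and 21 higher in MiaPaCa2, where all genes gave 19.9% and 29.0%. The median difference of the interferon genes was -0.37 untreated and -0.19 treated, and that of all genes 0.14 and 0.10. Both comparisons called 51 interferon genes in the same direction, and 35.6% of all genes. The difference was smaller in size after treatment at 98 of 156 interferon genes (62.8%) and at 59.1% of all genes. The 2 comparisons share no library. Treated against untreated, 28 interferon genes were higher in treated CFPAC1 and 42 in treated MiaPaCa2, where 0.677% and 0.561% of all genes were; these counts were not tested against each other.

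A group of 33 interferon genes (21.2% of 156) was called apart untreated and had like coverage treated, which 9.09% of all tested genes did. Untreated, 25 of them were lower in MiaPaCa2 and 8 higher, and the median difference went from -0.64 to -0.12. The group was picked by a difference in the untreated libraries and a small one in the treated libraries, so the narrower median follows from the choice. The change of the difference itself was called at none of the 33 (limma; smallest adjusted p = 0.0831; 21 at an unadjusted p under 0.05). GBP3, a guanylate-binding protein, had 3567 and 2951 bp in untreated CFPAC1 against 682 and 349 bp in untreated MiaPaCa2, and 3718 and 3173 bp against 3299 and 2709 bp treated. For PLSCR1, a phospholipid scramblase that restricts viruses, untreated values were 3873 and 3532 bp against 1042 and 1201 bp, and treated values 3709 and 3254 bp against 4242 and 3468 bp. IFI27, a mitochondrial interferon-induced protein, had no coverage in untreated MiaPaCa2 and 1435 and 1309 bp when treated, beside 1859 and 1442 bp in treated CFPAC1. IFI27 missed the bound for like coverage at listed starts (-0.56) and within 20 kb (-0.47). OAS2 and IFIH1 belong here too. OAS2 had 0 and 329 bp in untreated and 3951 and 2823 bp in treated MiaPaCa2, and IFIH1 232 and 568 bp and then 4660 and 3903 bp. OAS2 missed the bound with 100 bp added (-0.25) and after quantile normalization (-0.34). It also missed it without CFPAC1 replicate 1 (-0.36) or MiaPaCa2 replicate 1 (-0.58). IFIT1 was among the 8 genes with more coverage in untreated MiaPaCa2, with 4345 and 4794 bp beside 1655 and 2227 bp in untreated CFPAC1.

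The change of the line difference with treatment was called at 9 of 15509 genes (0.0580%), 3 of them interferon genes (XAF1, CXCL11 and APOBEC3A). At XAF1 the gap narrowed, from -3.08 untreated to -0.68 treated, a change of 2.41 (adjusted p = 0.00322). At CXCL11 it opened, from -0.35 to -3.37 (change -3.02, adjusted p = 0.0158), and at APOBEC3A, a cytidine deaminase with 0 bp in every untreated library, treated CFPAC1 had 2040 and 1738 bp and treated MiaPaCa2 0 bp (change -2.32, adjusted p = 0.0143). APOBEC3A had coverage in those 2 libraries alone and so passed the filter only through the group where it is high; its call is no support for a change. The call at CXCL11 was lost without any 1 of the 4 treated libraries (adjusted p 0.0539 to 0.176), within 2 kb (-1.75, 0.146), within 20 kb (0.0727), with 100 bp added (0.0568) and with equal peak numbers (0.0521); that at XAF1 was lost without CFPAC1 replicate 2 (0.0521) and that at APOBEC3A without MiaPaCa2 replicate 1 (0.0529) and within 20 kb (0.155). OAS1 had the same course as XAF1, from -3.23 to -1.02, and its change was not called (2.21, adjusted p = 0.154). A change of more than 1 on the log2 scale was found for 27 interferon genes (17.3%), 15 of them toward MiaPaCa2 and 12 toward CFPAC1, and for 508 of all tested genes (3.28%).

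**Figure D2:**
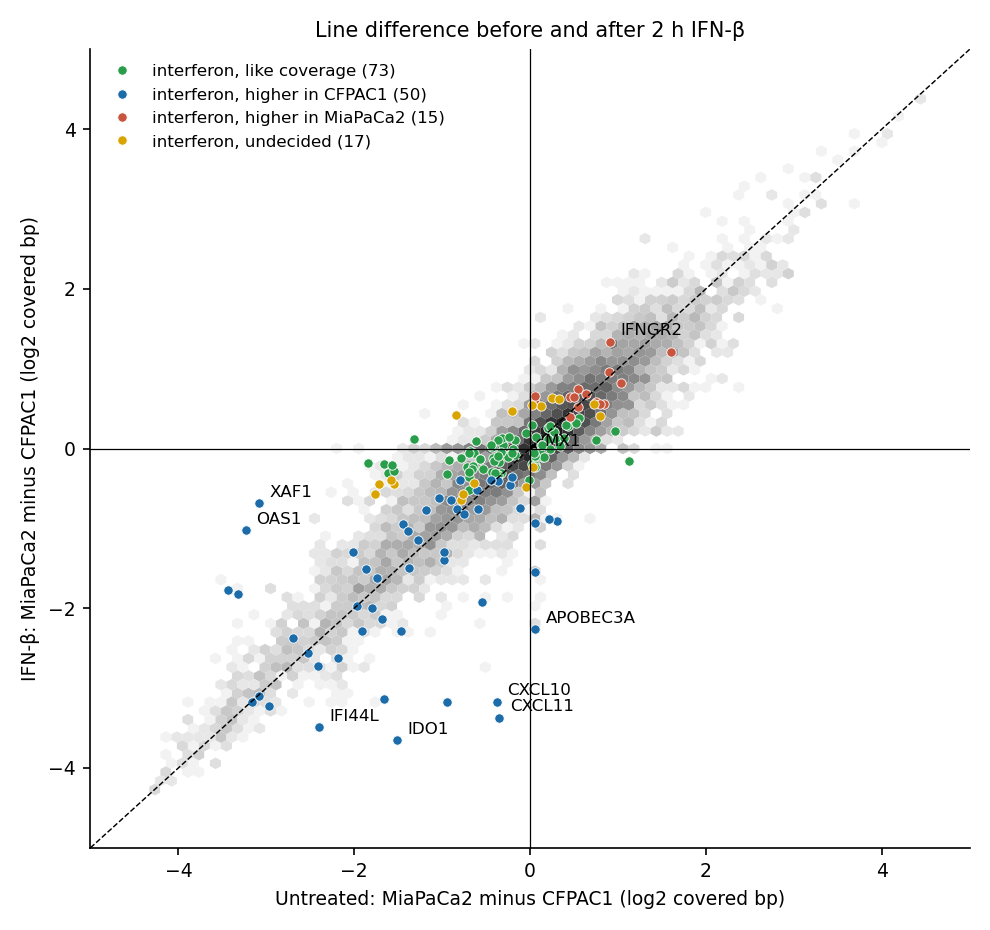
Line difference (log2, MiaPaCa2 minus CFPAC1) untreated on the x axis and treated on the y axis; grey hexagons count all tested genes and coloured points are interferon genes by class. Most genes lie along the diagonal (Pearson r = 0.928 over all genes and 0.706 over the interferon genes, a description across genes, which are not independent replicates), while XAF1 lies above it and CXCL11 below.

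Merged peaks of the 4 treated libraries gave 129150 loci, and the interferon pattern was set against them. Peaks of all 4 libraries were found in 20250 loci (15.7%), of both CFPAC1 and neither MiaPaCa2 library in 29356 (22.7%), of both MiaPaCa2 and neither CFPAC1 library in 15106 (11.7%), and other combinations made up the rest. The CFPAC1 lists held more peaks. With equal peak numbers per library the counts of 1 line were closer, at 19351 for CFPAC1 and 15903 for MiaPaCa2. The shared loci were wide and close to genes, with a median of 2012 bp and 55.5% within 1 kb of a gene end. Loci of 1 line were narrower and more distant, at 807 bp and 6.59% in CFPAC1 and 697 bp and 12.7% in MiaPaCa2. Of the CFPAC1 loci, 80.2% had a peak in both untreated CFPAC1 libraries and 0.998% in both untreated MiaPaCa2 libraries; of the MiaPaCa2 loci, 71.4% had one in both untreated MiaPaCa2 and 5.56% in both untreated CFPAC1 libraries. No untreated bulk library held a peak in 8.67% of the CFPAC1 and 6.96% of the MiaPaCa2 loci. Single loci were not tested.

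**Figure D3:**
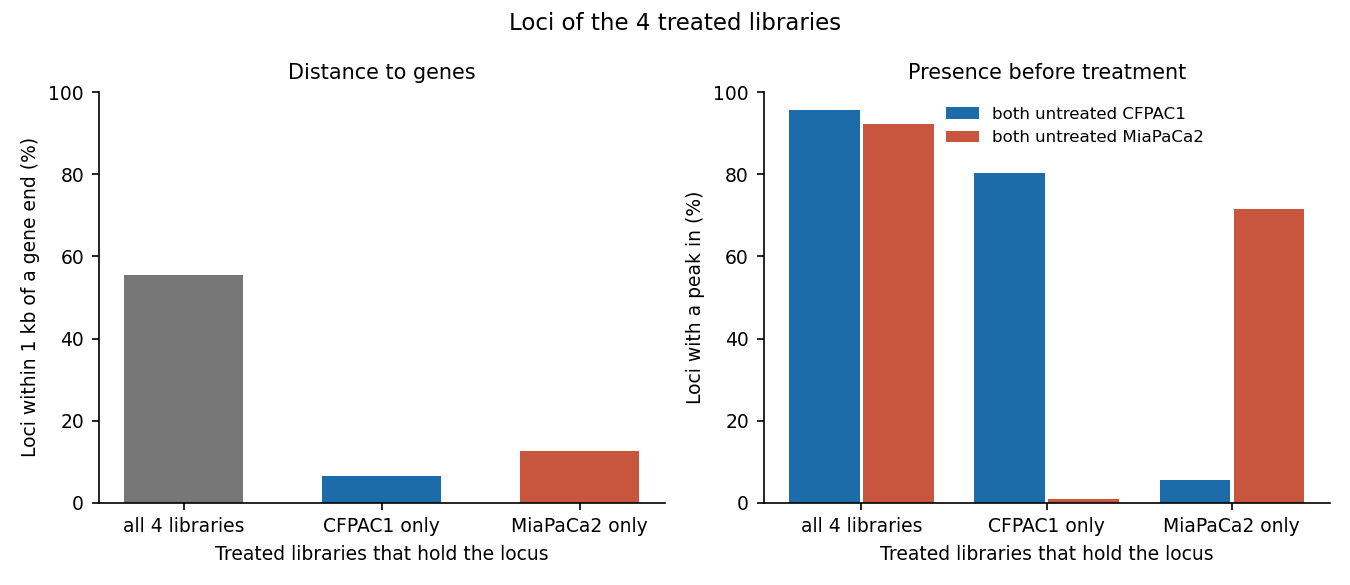
Percent of loci within 1 kb of a gene end and percent with a peak in both untreated libraries of each line (y axis), for loci of all 4 treated libraries and of 1 treated line. Loci of all 4 libraries stand at 55.5% near gene ends, and loci of 1 line are mostly found in the untreated libraries of that line.

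Line-specific loci lay around interferon genes of like coverage at shares near those of all tested genes. Within 50 kb of the centre of the window, 52 of the 89 (58.4%) had a locus of CFPAC1 only and 43 (48.3%) a locus of MiaPaCa2 only. For all tested genes of like coverage the shares were 48.6% and 41.5%, and for all tested genes 52.8% and 44.2%. Near MX1, 3 loci had peaks in both treated MiaPaCa2 libraries and in neither treated CFPAC1 library. The one at chr21:41369941-41371699 overlaps MX2 and had 1149 and 1270 bp in untreated MiaPaCa2. The one at chr21:41458182-41459565, which touches the end of MX1, had 0 bp in every untreated bulk library and 1213 and 279 bp in treated MiaPaCa2. Of the 50 interferon genes higher in CFPAC1, 42 (84.0%) had a CFPAC1 locus and 3 (6.0%) a MiaPaCa2 locus nearby, beside 91.9% and 19.6% of all genes higher in CFPAC1. Around CXCL11, 11 loci of CFPAC1 alone ran from CXCL9 to beyond CXCL11, among them chr4:76023293-76025134 at CXCL10 (1749 and 1166 bp) and chr4:76034325-76037758 at CXCL11 (3434 and 2215 bp), both at 0 bp in the untreated bulk libraries. The locus at IDO1, chr8:39910987-39915865, had 933 and 763 bp in untreated and 4798 and 4368 bp in treated CFPAC1.

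Endodermal factors, adhesion genes and mucins were mostly higher in treated CFPAC1. Between the untreated lines 11 of 20, 24 of 31 and 24 of 35 of them were called higher in CFPAC1 (19.9% over all genes). Of all genes treated, 17.9% were higher in CFPAC1, 24.6% higher in MiaPaCa2 and 53.0% alike. No endodermal transcription factor was higher in MiaPaCa2 (limma; 0 of 20 also at an unadjusted p under 0.05), 12 were higher in CFPAC1 and 4 alike, with a median difference of -1.13 treated and -1.48 untreated. PDX1, the master factor of the pancreatic bud, had 4223 and 4520 bp in treated CFPAC1 against 220 and 376 bp in treated MiaPaCa2, and FOXA2, a pioneer factor of endoderm, 2205 and 3210 bp against 0 bp. GATA6, a factor of the classical subtype, had 4568 and 4674 bp in untreated CFPAC1 and 3960 and 4377 bp in treated CFPAC1, against 242 and 0 bp in untreated and 831 and 955 bp in treated MiaPaCa2. Its treated difference was -1.75 ± 0.16 (adjusted p = 2.07e-05), and the change from the untreated difference of -3.01 was not called (adjusted p = 0.113).

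Of 14 epithelial transcription factors, 7 were higher in CFPAC1 (17.9% over all genes) and 2 in MiaPaCa2 (24.6% over all genes). KLF5, which holds epithelial enhancers of low-grade lines, had 6954 and 5457 bp in treated CFPAC1 and 0 bp in treated MiaPaCa2 (-3.74 ± 0.27). The locus at chr13:73059645-73076985, of 17341 bp, was 1 of the widest with peaks in treated CFPAC1 and none in treated MiaPaCa2. It overlapped KLF5 and lay 553 bp from the gene's nearer end. Peaks covered 17181 and 16958 bp of it in untreated CFPAC1. ELF3, an epithelial ETS factor, had 8883 and 8503 bp in untreated CFPAC1 against 8237 and 4423 bp in untreated MiaPaCa2 (-0.43, adjusted p = 0.154), and 8145 and 7343 bp against 2581 and 3659 bp treated (-1.21 ± 0.23, adjusted p = 0.00229). The gap was thus called only in the treated state, but its change was not called (-0.78, adjusted p = 0.635); the window is shared with RNPEP.

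The products of the epithelial programme followed. Of 31 adhesion genes, 21 were higher in CFPAC1 and 2 in MiaPaCa2 (median -1.64 treated and untreated), where 17.9% and 24.6% of all genes were. CDH1, which encodes E-cadherin, had 5115 and 4882 bp against 0 bp in treated MiaPaCa2, and the surface glycoprotein EPCAM 3803 and 3680 bp against 0 bp. Of 35 genes of mucins and the classical subtype, 22 were higher in CFPAC1 and 3 in MiaPaCa2 (median -1.29), beside the same shares of all genes. The mucin MUC4 had 7917 and 6959 bp, the adhesion molecule CEACAM6 6514 and 4293 bp and the secreted disulfide isomerase AGR2 5084 and 5478 bp, all against 0 bp in treated MiaPaCa2. Of 15 keratins, 3 were higher in CFPAC1, a share near the 17.9% of all genes, and none in MiaPaCa2 (limma; 0 also at an unadjusted p under 0.05), and the median was -0.01. KRT19 had 9589 and 9422 bp in treated CFPAC1 and 9486 and 9621 bp in treated MiaPaCa2 (0.00 ± 0.09), and KRT8 8325 and 8135 bp against 8806 and 8593 bp.

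**Figure D4:**
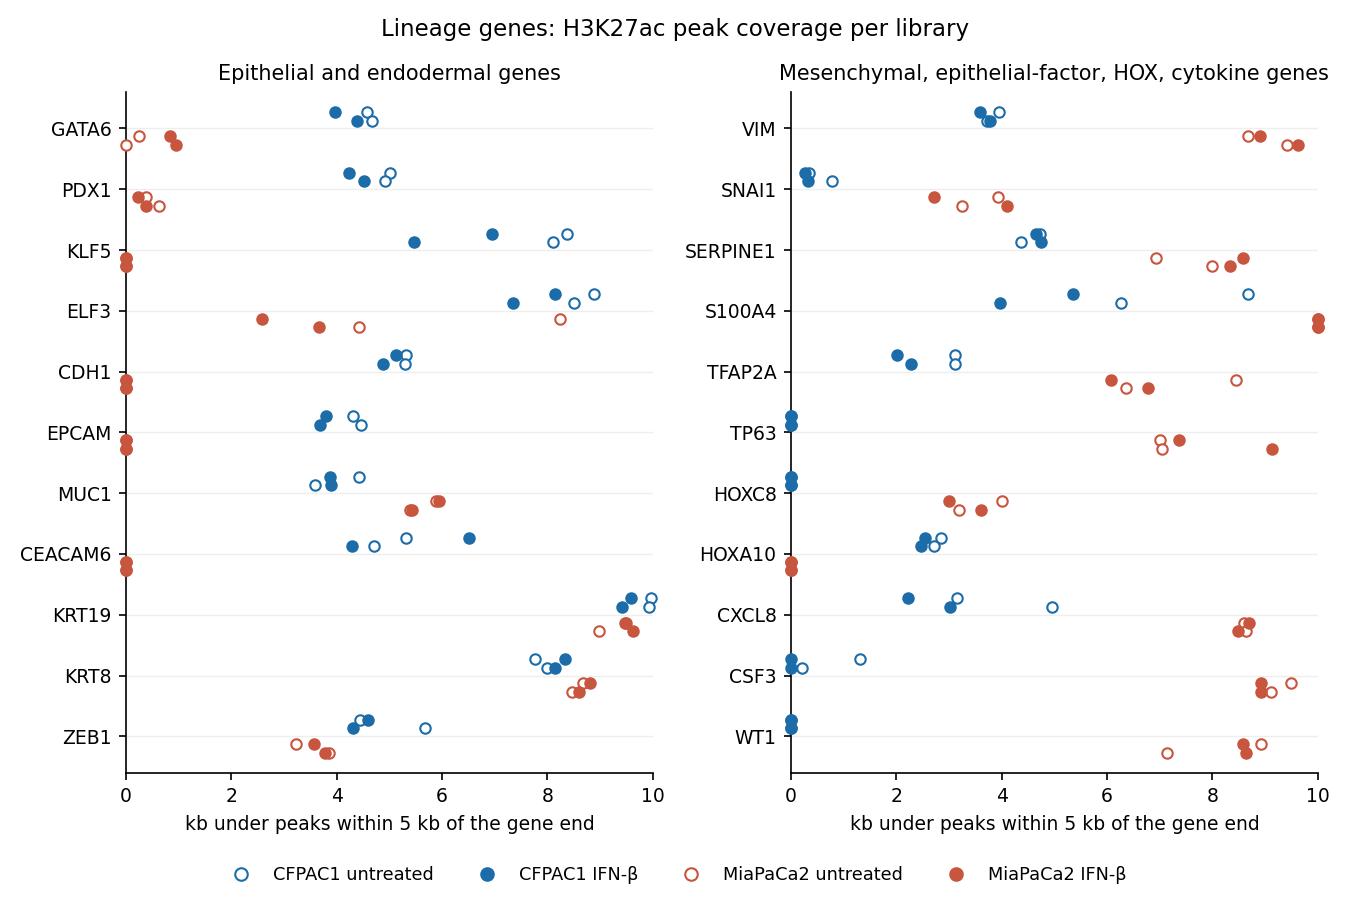
Coverage in kb under peaks (x axis) of 22 lineage and cytokine genes in each bulk library; blue points are CFPAC1, red points MiaPaCa2, open untreated and filled treated, and points at the same value cover each other. Filled MiaPaCa2 points are at 0 for KLF5, CDH1 and EPCAM, beside the filled CFPAC1 points for KRT19 and KRT8, and far above them for VIM, TP63 and CXCL8.

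Of 24 mesenchymal genes tested, 5 were higher in MiaPaCa2 and 11 in CFPAC1 (median -0.34), where 24.6% and 17.9% of all genes were; the share higher in MiaPaCa2 is near that of all genes. VIM, the intermediate filament of mesenchymal cells, had 3583 and 3776 bp in treated CFPAC1 and 8897 and 9632 bp in treated MiaPaCa2 (1.22 ± 0.09, adjusted p = 3.14e-06). SNAI1, a repressor of E-cadherin, had 259 and 320 bp against 2718 and 4093 bp (2.28 ± 0.25), and LOXL2, a matrix cross-linking enzyme, 1236 and 1698 bp against 6207 and 8178 bp. ZEB1, another E-cadherin repressor, was alike at 4595 and 4316 bp against 3560 and 3769 bp (-0.26). FOXC2 with 8106 and 7611 bp and the receptor TGFBR2 with 7993 and 7498 bp were covered in treated CFPAC1 and at 0 bp in treated MiaPaCa2. TP63, a factor of squamous identity, had 0 bp in treated CFPAC1 and 7363 and 9135 bp in treated MiaPaCa2.

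Among 33 HOX genes, which set position along the body axis, 16 were higher in MiaPaCa2 and 4 in CFPAC1 (median 0.58). Over all genes these shares were 24.6% and 17.9%. HOXC4 had 0 bp in treated CFPAC1 against 3425 and 4301 bp in treated MiaPaCa2, and HOXA10 2544 and 2466 bp against 0 bp. Over all genes the widest gaps toward MiaPaCa2 were at ALDH8A1 (10001 and 9905 bp) and CAVIN2 (9823 and 10001 bp), each at 0 bp in treated CFPAC1. The ALDH8A1 window does not hold its listed start, where the difference was 0.31 and not called (adjusted p = 0.64). Toward CFPAC1 they were at ADGRF1 (10001 and 9728 bp), KRT39 (9740 and 9750 bp), the adhesion molecule ALCAM (9244 and 9705 bp) and the stem-cell factor SOX2 (9455 and 9392 bp), each at 0 bp in treated MiaPaCa2.

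Inflammatory genes driven by NF-κB differed in both directions. Of 29 tested, 10 were higher in MiaPaCa2, 7 in CFPAC1 and 12 met the bound (median 0.19). Over all genes these shares were 24.6%, 17.9% and 53.0%. The neutrophil chemokine CXCL8 had 2221 and 3010 bp in treated CFPAC1 and 8697 and 8495 bp in treated MiaPaCa2, and its relative CXCL1 1002 and 2801 bp against 8141 and 7895 bp. ICAM1, an adhesion molecule for leukocytes, had 0 and 396 bp against 3970 and 5256 bp, but the direction turned at its listed start (-0.72, adjusted p = 0.00472). The growth factor CSF3 had 0 bp against 8927 bp in both treated MiaPaCa2 libraries, in a window shared with MED24. In the other direction the cytokine IL6 had 5391 and 5755 bp, the NF-κB cofactor NFKBIZ 7396 and 5665 bp and the prostaglandin synthase PTGS2 4824 and 3999 bp in treated CFPAC1, all against 0 bp in treated MiaPaCa2. The treated groups did not overlap at CXCL8, CXCL1, ICAM1, CSF3, IL6, NFKBIZ or PTGS2, as was so at 70.7% of all genes.

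**Figure D5:**
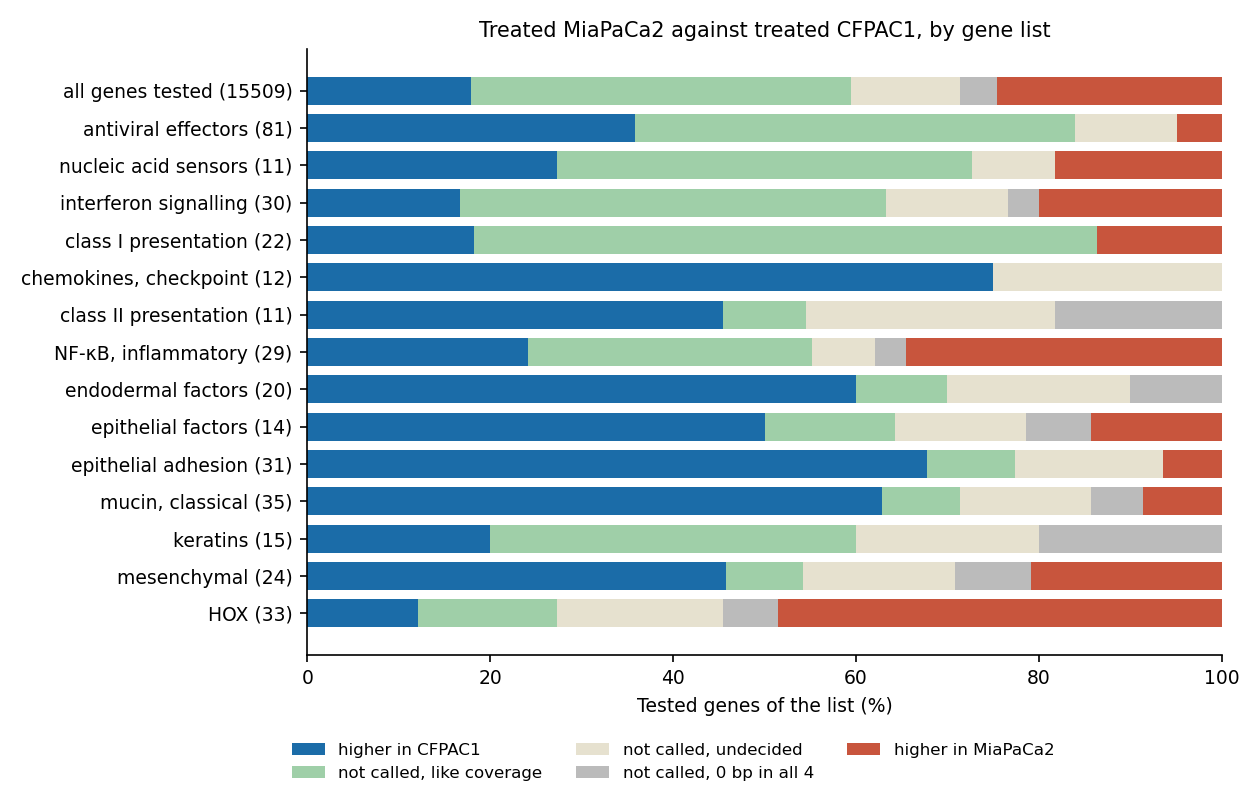
Percent of the tested genes of each list (x axis, stacked) that were higher in treated CFPAC1, higher in treated MiaPaCa2, of like coverage and not called, or undecided. Class I genes are mostly alike, chemokine and checkpoint genes are higher in CFPAC1 in 9 of 12 (17.9% over all genes), and HOX genes lean toward MiaPaCa2.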

How the data were processed

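H3K27ac ChIP-seq peak lists, 1 per library, were used from 12 libraries in 6 groups of 2. Per the submitters' processing notes, Trimmomatic 0.38, Bowtie2 2.2.6, SAMtools and MACS2 2.1.0.20150731 were used on GRCh38 (hg38). For each peak the authors deposited a score, a fold enrichment ratio, a -log10 p and a -log10 q, which ranked or filtered peaks within a list only; the deposited score was not used otherwise. The smallest deposited -log10 q was 1.30 in the treated libraries. The control library, filters and read depth are not given in the sources used here, so no interval that needs read counts was computed.

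On chromosomes 1 to 22 and X, for 19970 protein-coding genes named by RefSeq, covered bp were summed within 5 kb of the gene end with the larger mean over all 12 libraries. Of 156 tested interferon genes, 104 have a listed start in that window, 12 do not and 40 have no listed start; genes that share a window are named. The 15509 genes with coverage in 2 or more libraries entered as log2(bp + 500), centred on each library's mean, with limma 3.58.1 (R 4.3.3; 1 model of 6 groups, trended prior, 6 residual degrees of freedom) and Benjamini-Hochberg adjustment over all tested genes. Of 100 genes simulated with a log2 difference of 1 in the treated comparison of 15509 genes 67 were recovered, and 92 of 100 with a difference of 2. Among the unmoved genes 9 were called. The simulation had normal noise, no limit at 0 or 10001 bp and few moved genes, while 42.5% of genes were called in the data. Its shares therefore need not hold for the real comparison. Loci are touching peaks of the treated libraries merged; a peak had to overlap by 1 bp. Python 3.11.15, numpy 2.4.6 and pandas 2.3.3 were used.

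The members, lists and tests were chosen with earlier results of these data known. Genes named are up to 6 called and 6 alike per list and direction by size, a standing list of interferon and epithelial genes, the widest differences over all genes, and interferon genes whose difference changed; CD274, CXCL9, GBP1, IFNAR1, IFNAR2 and SLFN11 were named after their values were seen. Alternatives changed the added bp, filter, scaling, peaks, window, libraries, replicate block, overlap and merging. Windows at listed starts and a fit of the 8 bulk libraries were added after seeing the data. Results of 2 genes are not reported here.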

Additional observations from a re-analysis of the deposited data

Results flagged for a closer look

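At 3 interferon genes the line difference itself changed with treatment by limma's test of that change, between untreated and treated libraries. The change was 2.41 on the log2 scale at XAF1, toward MiaPaCa2, and -3.02 at CXCL11 and -2.32 at APOBEC3A, toward CFPAC1. APOBEC3A was covered in the 2 treated CFPAC1 libraries alone, so it entered the test only through the group where it is high, and its call is no support for a change. At CXCL11 and APOBEC3A every MiaPaCa2 bulk library was at 0 bp, and at XAF1 both untreated MiaPaCa2 libraries were. The size of the change at all 3 genes therefore depends on the 500 bp added before the logarithm. With 100 bp added the limma adjusted p at CXCL11 was 0.0568.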

How the results depend on the processing

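Depth is unknown, peak extent is not peak height, a gene window cannot exceed 10001 bp, and with 2 libraries a line the limma p-values lean on spread shared over 6 groups. The counts of all genes and of interferon genes higher in each treated line, and of interferon genes of like coverage, stayed within 1.5 times of those reported under every alternative with all 4 treated libraries. Over the alternatives with gene-end windows and all 4 treated libraries, 54 interferon genes stayed alike, 30 higher in CFPAC1 and 7 higher in MiaPaCa2. Of 2261 values of 136 named called genes, 2122 kept their call, 130 lost it and 9 reversed. The reversed ones were CMTR1 (-0.25), DDX60 (-0.04), HOXA7 (0.79) and ICAM1 (-0.72) at listed starts, CLDN4 (-0.04) and ZNFX1 (-0.05) within 2 kb, and APOL3 (-0.26), HOXA6 (0.61) and HOXC9 (1.87) within 20 kb; the cause was not tested. Genes whose line difference changed, 9 in the report, numbered 17 with -log10 q of at least 5, 17 with no centring, 57 with no filter, 19 in the 8 bulk libraries, 27 with 100 bp added and 35 after quantile normalization. The interferon genes among them, 3 in the report, numbered 6 with no filter, 6 in the 8 bulk libraries, 5 with 100 bp added and 7 after quantile normalization. Loci of CFPAC1 alone fell to 19351 with equal peak numbers per library, where those of MiaPaCa2 alone numbered 15903. Loci of MiaPaCa2 alone fell to 9440 with -log10 q of at least 5 and to 8097 when peaks within 500 bp were merged, and loci of all 4 libraries to 12128 when a peak had to cover most of the locus. Leaving out each treated library in turn gave 2520 to 2810 genes higher in MiaPaCa2 (lowest without MiaPaCa2 replicate 2), 2213 to 2319 higher in CFPAC1, 9 to 12 interferon genes higher in MiaPaCa2 (9 without CFPAC1 replicate 2 or MiaPaCa2 replicate 1), 35 to 50 higher in CFPAC1, 79 to 85 alike, 0 to 16 genes and 0 to 2 interferon genes whose difference changed (0 without CFPAC1 replicate 2), 30376 to 49839 loci of CFPAC1 alone and 16538 to 38592 of MiaPaCa2 alone. With 1 library left in a line, it was assumed to vary like the others. Deviations of same-numbered libraries had r = 0.058 between the treated groups and -0.049 to 0.205 over all pairs of bulk groups, so the numbers were not taken to pair the libraries; a replicate block gave 3760 genes higher in MiaPaCa2, 2795 in CFPAC1, 50 and 14 interferon genes, 88 alike and 8 genes whose difference changed.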

Other observations

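Of 40 ribosomal protein genes, 23 were higher in treated MiaPaCa2 (24.6% of all tested genes) and 1 in treated CFPAC1 (17.9%), with a median difference of 0.42. The bound for like coverage was met by 34 of the 40, against 53.0% of all genes. AP-1 subunits, transcription factors of growth and stress signals, gave 5 of 12 higher in MiaPaCa2 (24.6% over all genes) and 1 in CFPAC1 (17.9%). Of these 12, 9 met the bound for like coverage (53.0% over all genes). Collagens, integrins and laminins leaned the other way, with 14 of 29 higher in CFPAC1 (17.9% over all genes) and 2 in MiaPaCa2 (24.6%). Metabolic lists gave the following calls, beside 24.6% of all genes higher in MiaPaCa2 and 17.9% in CFPAC1: 8 and 5 of 17 glutathione and NRF2 genes, 5 and 4 of 20 sterol and fatty acid synthesis genes, 5 and 5 of 22 glycolysis and pentose phosphate genes, and 2 and 5 of 21 fatty acid oxidation genes were higher in MiaPaCa2 and CFPAC1, and the sterol and glycolysis shares are near those of all genes.

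All 4 bulk MiaPaCa2 libraries, treated and untreated, lacked peaks from 19409826 to 26890883 on chromosome 9, a stretch of 7.48 Mb in which the 4 bulk CFPAC1 libraries shared 69 loci. The stretch holds 29 protein-coding genes, among them IFNB1, the IFNA cluster, IFNE, MTAP and CDKN2A. The widest locus with peaks in treated CFPAC1 and none in treated MiaPaCa2, chr9:21575585-21593954 with 18370 bp, lies in it. Peaks covered 17965 and 18080 bp of this locus in untreated CFPAC1. Another stretch without a MiaPaCa2 peak ran over 5.38 Mb from 78619776 to 83998719 on chromosome 1, held 36 such loci and included IFI44L and IFI44. In the other direction, bulk CFPAC1 lacked peaks over 2.5 Mb of chromosome 9 from 10208918 to 12706094, where the bulk MiaPaCa2 libraries shared 29 loci. Copy number was not measured. Whether the DNA of these stretches is present in the line without peaks was not tested.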
